A study of Rattus norvegicus with 42 samples.

Results

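The peaks described here are transcription start site (TSS) peaks that were higher in the slow muscle of the rat during hindlimb unloading. They were chosen by their own measured levels, in CPM, the raw tag count of a peak scaled by the total of the peak table in that library. The mean of the 9 soleus libraries of the unloading phases plus 1 had to be at least 1.5 times the mean of the 3 soleus controls plus 1. On the same scale, the mean at 1 day of recovery had to stay under 2 times the soleus control, and the soleus control had to lie between 0.25 and 4 times the control of the fast muscle. Of 9969 peaks outside the mitochondrial chromosome (MT), 442 met these conditions, and they are called the rising peaks from here on. The ratio alone was met by 780 peaks, of which 277 failed the bound at recovery, 79 failed the bound between muscles and 18 failed both.

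CAGE was run on 42 libraries from 21 mature Wistar rats, namely the slow soleus and the fast extensor digitorum longus (EDL) of every rat, with 7 groups of 3 rats. Control rats were active. Disuse was induced by hanging rats by the tail for 1, 3 or 7 days (D1, D3 and D7), and the recovery groups were let down after 7 days of disuse and moved freely for 1, 3 or 7 days (R1, R3 and R7). Each library was made from the RNA of 1 muscle of 1 animal and is named by the animal number (U1 to U26), and in such bulk samples fewer cells of a type and less RNA per cell cannot be told apart.

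CAGE reads the capped 5′ ends of RNAs, so each tag is taken to mark where transcription of an RNA began. Neighbouring start positions on a strand are joined into a peak, and whether each peak is a promoter was not tested. Soleus is a postural muscle rich in slow fibres, which lose mass when the hindlimb no longer bears weight, whereas EDL is built mainly of fast fibres and is less affected by unloading. A gene can have several TSS peaks, so a change at a peak is a change in the level of capped ends there. It is not in itself a change of a whole gene.

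Libraries held 1778712 to 23103236 tags, and the peaks took 72.4% to 95.9% of them. A single tag was worth 0.590 CPM in EDL D1 U24, the shallowest library, and 0.0452 CPM in EDL D3 U10, the deepest. All controls of both muscles and the soleus of U24 (D1) were sequenced in lane 1, and the other unloading libraries were in lanes 2, 3 and 6, so lane and phase cannot be told apart for most groups. The deposited table gives peaks by position without gene names, so the peaks are given on Rnor_6.0 by position and strand, and the muscle labels were not checked against marker genes.

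In soleus, the summed level of the 442 rising peaks was 8611 to 10030 CPM in the controls, 12551 to 16642 at D1, 17063 to 18270 at D3 and 17951 to 18719 at D7. The median rising peak went from 6.98 CPM in the controls to 11.6 at D1, 14.1 at D3 and 14.0 at D7. Over all peaks outside MT, the corresponding medians were 10.9, 9.40, 11.6 and 12.3 CPM. This difference is what the peaks were selected on, and it is not tested. Most of the rising peaks were weak, since 268 had a soleus control mean under 10 CPM, 33 were under 1 CPM and 1 had no tag in the controls.

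**Figure D1:**
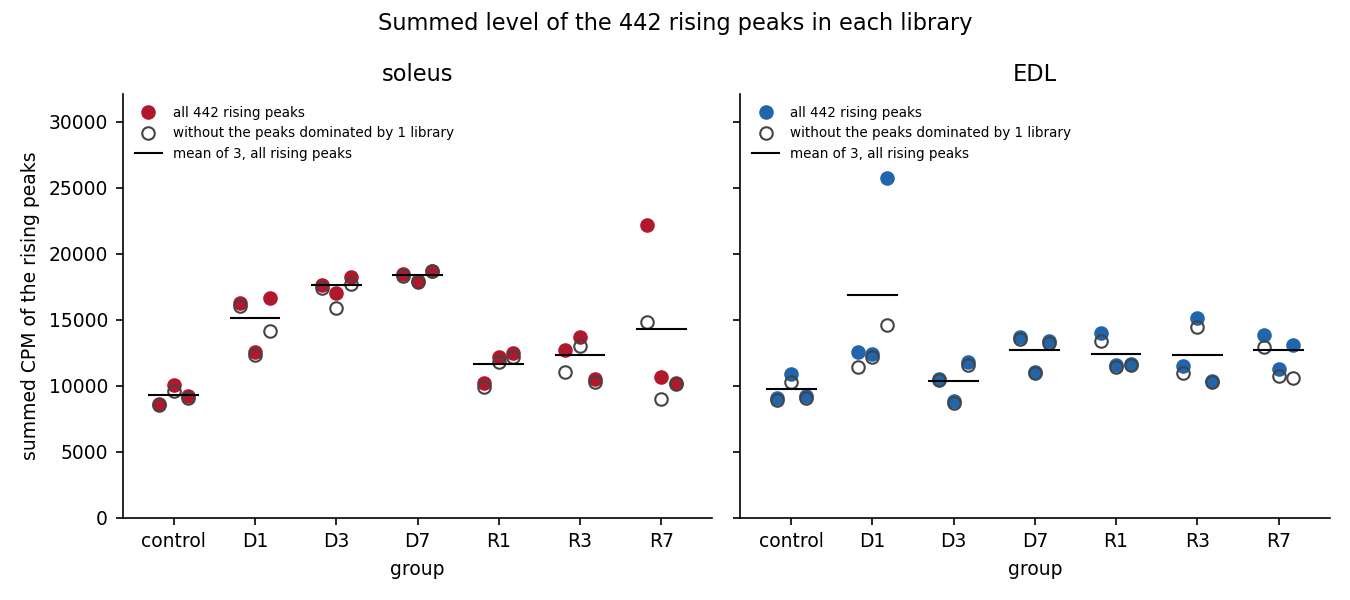
Summed CPM of the 442 rising peaks (vertical axis) in each soleus (left) and EDL (right) library by group (horizontal axis), with filled points for all rising peaks, open circles without the 32 peaks that owed over 50% of their unloading level to 1 library, and bars for the mean of 3. The soleus D3 and D7 libraries lie between 17063 and 18719 CPM, and soleus R7 U12 (22142 CPM) and EDL D1 U26 (25709 CPM) stand apart. Without the 32 peaks U12 and U26 hold 14827 and 14573 CPM. U12 then still lies above soleus R7 U13 and U19 (8963 and 10116 CPM).

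The ratio of the unloading to the control mean, both plus 1, had a median of 1.73 over the rising peaks and ran from 1.5 to 10.3. It was at least 2 in 114 peaks, at least 3 in 26 and at least 4 in 8. Just inside the threshold lay chr5:169160739-169160947 (minus strand, control mean 4.25 CPM, unloading mean 6.88 CPM), chr4:8952356-8952562 (plus strand, 1.30 and 2.44 CPM) and chr2:198184648-198184824 (minus strand, 16 and 24.4 CPM). Just outside lay chr7:140806641-140807011 (plus strand, 2.21 and 3.82 CPM), chr8:59532344-59532499 (plus strand, 50.2 and 75.6 CPM) and chr1:266379900-266380206 (plus strand, 6.67 and 10.5 CPM), so peaks on either side of the line hardly differ.

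The animals did not all contribute alike. All 9 unloading libraries exceeded all 3 controls in 91 rising peaks (20.6%), against 1.97% of all peaks, and 7 or more did so in 267. At the other end, 75 rising peaks had 4 or fewer unloading libraries above all controls. In the soleus of U24, the only unloading library from the lane of the controls, 328 rising peaks (74.2%) were above all 3 controls, against 22.5% of all peaks. All of these counts rest on libraries that chose the peaks.

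**Figure D2:**
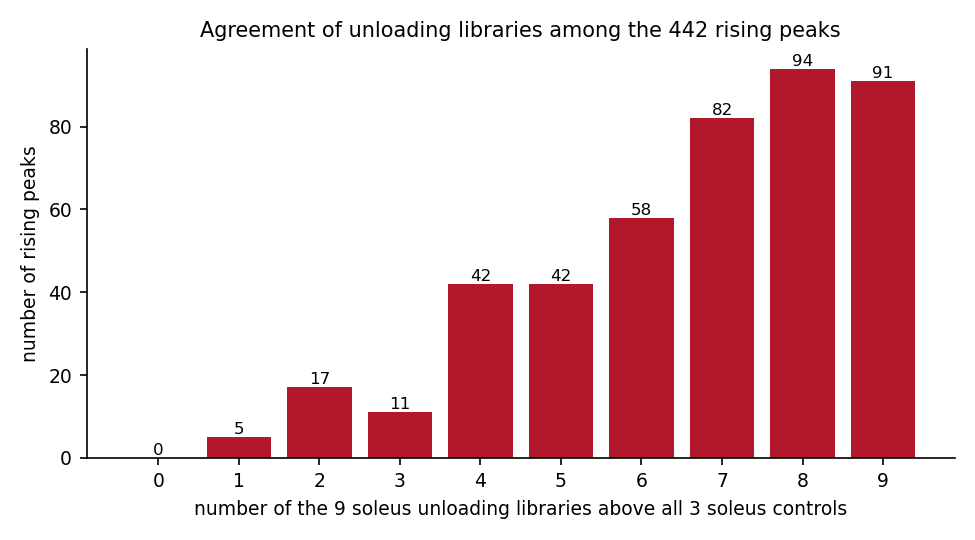
Number of rising peaks (vertical axis) by how many of the 9 soleus unloading libraries lay above all 3 soleus controls (horizontal axis). The highest bars are at 8 libraries (94 peaks) and 9 libraries (91 peaks), and 22 peaks rest on 1 or 2 libraries.

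The phase with the highest mean varied between peaks. The highest mean of the 3 phases was at D1 in 102 rising peaks (23.1%, against 13.8% of all peaks), at D3 in 192 (43.4%, against 36.8%) and at D7 in 148 (33.5%, against 49.3%). The ratio to the control reached 1.5 at all 3 phases in 97 rising peaks, at 2 phases in 251 and at 1 phase in 94. These phase means come from the libraries that chose the peaks, and a peak high in 1 library could enter through it. Nothing is read from the difference to all peaks.

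The 8 rising peaks with the highest ratio, among those with all 9 unloading libraries above the controls and a mean of at least 10 CPM, showed several time courses. The first, chr9:81968587-81969019 (plus strand, 433 nt), was at 6.91, 6.08 and 8.72 CPM in the soleus controls, 41.1, 43.6 and 45.8 CPM at D1, 16.4, 38.4 and 14.8 CPM at D3, and 13.2, 34.7 and 20.9 CPM at D7. It was highest on the first day, when its 3 libraries were nearly equal, and it had a ratio of 3.75. At R3 and R7 its 6 soleus libraries lay between 4.09 and 6.14 CPM, and at R1 they held 16.9, 10.9 and 16.7 CPM. In EDL the same peak went the other way, from 16.1, 14.0 and 12.1 CPM in the controls to 10.6, 10.7 and 13.4 CPM at D1, 6.72, 7.64 and 9.06 CPM at D3 and 6.86, 3.21 and 7.83 CPM at D7.

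Peaks on chromosomes 2, 10 and X were highest later. The peak at chr2:242882222-242882418 (plus strand) held 63.4, 47.4 and 52.6 CPM in the soleus controls, 128, 127 and 117 CPM at D1, 346, 333 and 132 CPM at D3 and 197, 223 and 168 CPM at D7. Its 3 R7 libraries (24.7, 15 and 27.6 CPM) were all below the controls. The peak at chr10:58972585-58973125 (minus strand) went from 13.1, 10.7 and 16.5 CPM to 25, 19.9 and 38.6 CPM at D1 and then to 51.9, 73.8 and 41.0 CPM at D3 and 55.3, 93.0 and 42.3 CPM at D7. EDL held more of it than soleus in the controls (61.2, 25.6 and 33.3 CPM), and the 9 EDL unloading libraries ranged from 13.5 to 92.9 CPM, on both sides of the EDL controls. At chrX:15098834-15098944 (plus strand) the soleus controls held 31.9, 47.4 and 40.4 CPM and the means ± SD rose from 39.9 ± 7.74 to 85.9 ± 16.7 CPM at D1, 139 ± 30.8 CPM at D3 and 155 ± 44.2 CPM at D7 (n = 3 animals each).

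A pair of peaks on chromosome 15, about 1 Mb apart on the minus strand, had nearly equal levels. Their most used starts held 71.1% and 70.9% of the pooled unloading tags. The study's methods keep reads that map to several places, and whether these 2 peaks share reads was not tested. The peak at chr15:24374578-24374826 was at 8.15, 7.28 and 9.28 CPM in the soleus controls, 29.0, 36.1 and 18 CPM at D1, 44.2, 34.9 and 28.0 CPM at D3 and 20.7, 23.5 and 17.2 CPM at D7. At chr15:23377237-23377479 the values were 7.50, 9.66 and 11.2 CPM, then 30.7, 36.5 and 16.9 CPM, then 43.5, 33.3 and 32.4 CPM, and then 17.6, 23.3 and 18.5 CPM. In both peaks U9 (D3) was the highest library, and in both the R7 libraries were back at or below 8.10 CPM.

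The remaining 2 of the 8 were chr7:12401438-12401939 (minus strand, ratio 2.72) and chr2:198656230-198656586 (plus strand, ratio 2.72). The chromosome 7 peak held 8.42, 7.40 and 8.44 CPM in the controls and 13.8 to 37.8 CPM over the 9 unloading libraries (median 21.5), with U24 of the control lane the highest. The chromosome 2 peak held 3.55, 3.22 and 4.43 CPM in the controls, 6.67 to 20.7 CPM in the unloading libraries (median 11.1), and only 1.54, 1.30 and 0.232 CPM at R7.

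**Figure D3:**
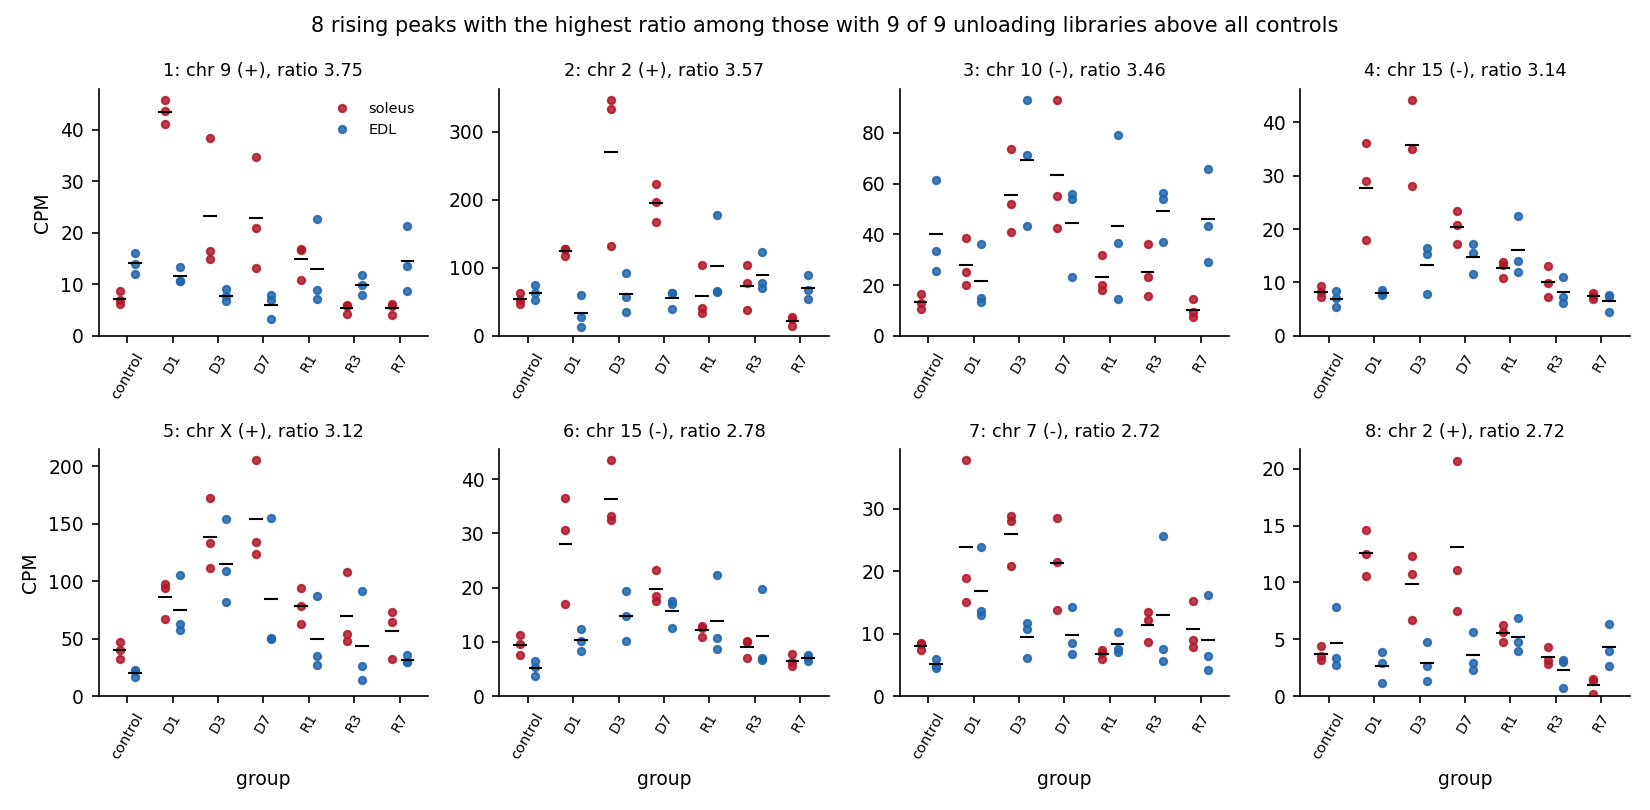
CPM (vertical axes) by group (horizontal axes) for the 8 rising peaks with the highest ratio among those with all 9 soleus unloading libraries above the 3 controls; points are single libraries of soleus (red) and EDL (blue), bars are means of 3. The chromosome 9 peak is highest in soleus at D1 (43.5 ± 2.33 CPM) while EDL lies below its controls at D3 and D7, and the X peak is above the controls in every unloading library of both muscles.

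Ratios above 5 came from unlike patterns. The highest of all, chr18:79406332-79406467 (plus strand, ratio 10.3), held 195 CPM in the soleus of U26 (D1) and 0.265 to 9.44 CPM in the other 8 unloading libraries. Next came chr1:264172706-264173134 (minus strand, ratio 6.86), with 250 CPM in U11 (D3) and at most 14.8 CPM elsewhere in unloading. In contrast, chr4:49267770-49267952 (minus strand, ratio 5.58) was above the controls (1.12, 0.954 and 0.554 CPM) in every unloading library, with 15.5, 8.71 and 9.45 CPM at D1, 9.31, 14.7 and 17.6 CPM at D3 and 2.76, 2.99 and 4.23 CPM at D7. These 3 peaks were chosen after their values were seen.

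In 32 rising peaks over 50% of the unloading level came from 1 library, U26 (D1) in 18, U11 (D3) in 6, U9 (D3) in 4, U10 (D3) in 2, and U2 (D7) and U25 (D1) in 1 each. Where U26 dominated, the EDL of the same animal was above all EDL controls in 10 of the 18 peaks and above every other EDL library in 7. Where U9 dominated, the EDL of U9 was above all EDL controls in 4 of 4 and above every other EDL library in 0. Against all EDL controls the count was 2 of 6 for U11, 0 of 2 for U10, 0 of 1 for U2 and 1 of 1 for U25. It was 17 of 32 in total. No share over all peaks was computed for these counts, so nothing is read from them. The 4 peaks of chr1:264161118-264173134 (minus strand) owed 90.7% to 96.0% of their unloading level to U11, and 4 peaks on both strands of chr13:89528886-89529893 owed 85.3% to 92.7% to U26. Without the 32 peaks the summed level in soleus R7 U12 was 14827 CPM instead of 22142 CPM.

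Among the 5 rising peaks with the highest unloading level, 1 was of this kind. The peak at chr10:82745711-82745952 (plus strand) held 156, 184 and 1669 CPM at D1 and 64.2, 35.7 and 19 CPM at D7, against controls of 46.2, 338 and 167 CPM. It reached 9705 CPM in the EDL of U26 and 6602 CPM in the soleus of U12 (R7). Further downstream, 4 more rising peaks of the same strand (chr10:82756907-82762741) had 47.2% to 56.8% of their unloading level in U26. Only U26 and U11 (620 CPM) exceeded all controls at the strongest of these peaks.

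The other strong peaks were spread over more animals. The strongest rising peak, chr3:143223298-143223748 (minus strand), held 504, 645 and 420 CPM in the soleus controls, 419, 778 and 555 CPM at D1, 1537, 1093 and 732 CPM at D3 and 1296, 1075 and 659 CPM at D7. Its D1 libraries overlapped the controls and its D3 and D7 libraries did not. At chr1:167197491-167197599 (plus strand) all 9 unloading libraries (249 to 474 CPM, median 277) were above the controls (130, 102 and 179 CPM), and the R7 libraries (90.8, 73.8 and 69.5 CPM) were below them. The peak at chr2:198682987-198683567 (plus strand) dipped in the middle, with 577, 286 and 551 CPM at D1, 102, 205 and 206 CPM at D3 and 501, 443 and 489 CPM at D7, against 144, 168 and 88.0 CPM in the controls. At chr14:46521676-46521901 (plus strand) the unloading libraries ran from 132 to 663 CPM around controls of 196, 192 and 194 CPM, and 4 of 9 were above all controls.

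The soleus and EDL of a rat come from the same animal, so the level of a peak can be followed per animal. The deviations from the group means in soleus and EDL were correlated over the 21 animals with r above 0.8 in 13 rising peaks (2.94%), against 0.532% of all peaks. These correlations are descriptions. A peak that was high in a few animals could be chosen through their soleus libraries, so nothing is read from the difference to all peaks. The peak at chr15:88692545-88692562 (minus strand, 18 nt) was at 25.8 CPM or more in both muscles of 12 animals and at 1.10 CPM or less in both muscles of the other 9. The 12 animals were 1 control (U6), 1 of D1 (U25), all of D3 and D7, none of R1, all of R3 and 1 of R7 (U19), so 7 of the 9 unloaded animals and 1 of the 3 controls were high and the ratio was 3.91. The peaks at chr6:136541253-136541283 and chr18:1825631-1825651 (both minus strand) were high in U9 (D3) and U13 (R7) alone, at 36.6 and 88.4 CPM in soleus and 28.9 and 82.3 CPM in EDL for the former.

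**Figure D4:**
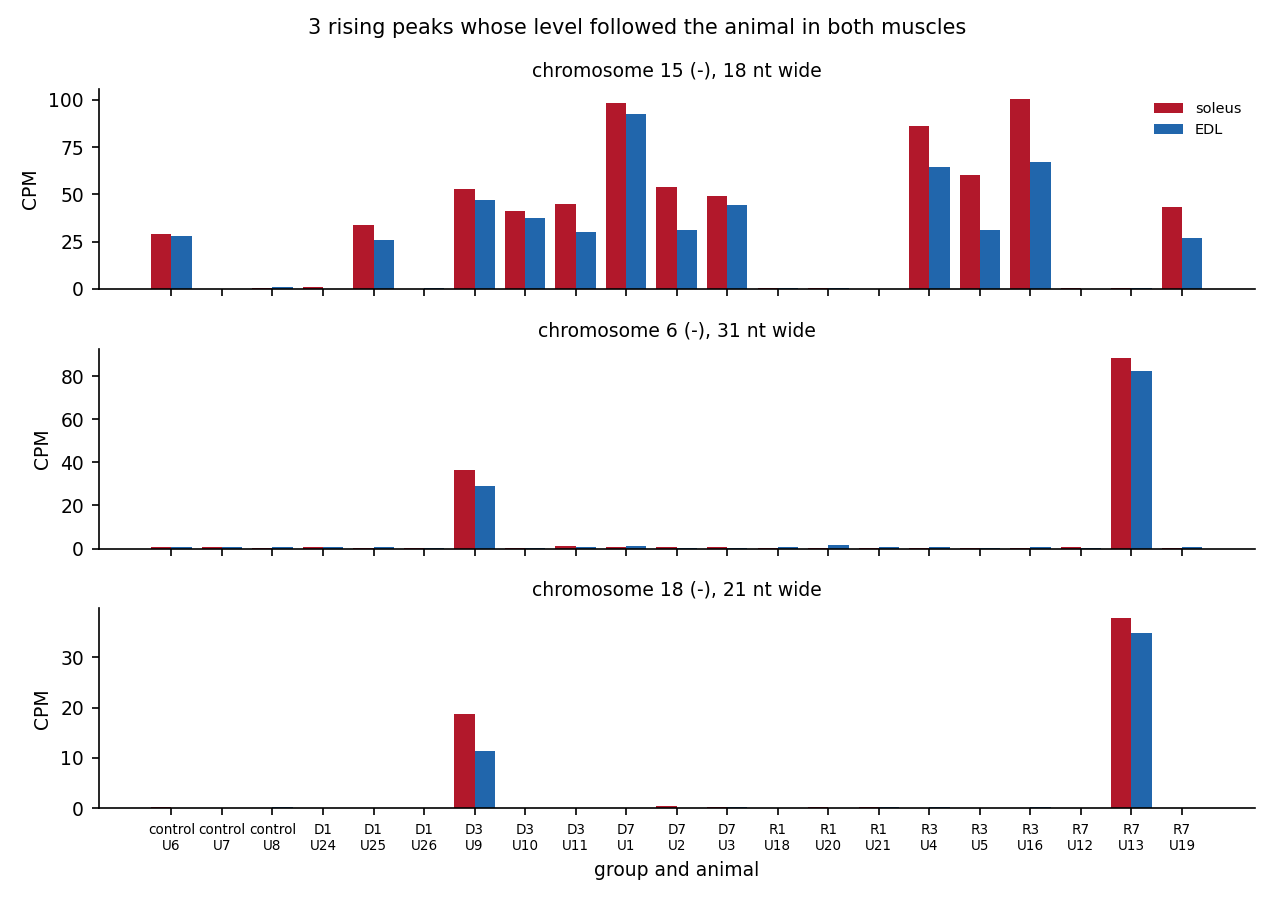
CPM (vertical axes) in soleus (red) and EDL (blue) of each of the 21 animals, ordered by group (horizontal axis), for 3 rising peaks whose level followed the animal. The chromosome 15 peak is at 25.8 CPM or more in both muscles of 12 animals, and the peaks on chromosomes 6 and 18 are high in U9 and U13 alone.

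During recovery most of the rising peaks came down. The sum over the 442 peaks was 10181 to 12483 CPM at R1, 10532 to 13703 CPM at R3 and 10233 to 22142 CPM at R7, and the median rising peak was at 8.44, 8.40 and 7.23 CPM. The R1 level is bounded by the choice of the peaks, and R3 and R7 are set against the same controls that chose them, so these are descriptions. The mean was above the control mean by more than 50% of the rise at R1 in 155 rising peaks, at R3 in 127 and at R7 in 112. These counts include 59, 72 and 71 peaks whose mean at R1, R3 and R7 was above the unloading mean. At R3 all 3 libraries were above all controls in 80 rising peaks (18.1%, against 20.2% of all peaks) and below all controls in 33 (7.47%, against 9.54%). At R7, 34 rising peaks were above (7.69%, against 7.31%) and 81 below all controls (18.3%, against 12.1%). From R3 to R7 the shares over all peaks shifted in the same direction, and the share below all controls rose more among the rising peaks. The controls used here also chose the peaks, so nothing is read from the difference to all peaks.

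R7 and R3 can be compared without the controls. No rising peak of 432 tested was called between R7 and R3 in soleus (0.0% of all 9842 peaks tested were called by edgeR's quasi-likelihood test), where called means a Benjamini-Hochberg adjusted p under 0.05 and a log2 fold change beyond 5/4 in either direction. At an unadjusted p under 0.05, 53 of 432 rising peaks and 580 of all 9842 peaks passed. Of the 53, 13 were higher at R7 and the rest lower. DESeq2 called 0 rising peaks (0.0602% of all peaks). The median log2 change from R3 to R7 was −0.13 over the rising peaks and 0.02 over all peaks.

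The phases of unloading were also set against each other within soleus. The same 9 libraries chose the peaks by their mean, and a peak that was high in 1 phase or 1 library could enter through it, so these counts are a description and nothing is read from the difference to all peaks. Between D1 and D3, 7 of 432 rising peaks were called (1.62%, against 0.335% of all peaks) and all 7 were lower at D3 (0.203% of all peaks were called lower). Between D1 and D7, 16 rising peaks were called (3.70%, against 1.04% of all peaks), 5 higher (1.16%, against 0.589%) and 11 lower (2.55%, against 0.447%). DESeq2 called 33 rising peaks at D3 (7.53%, against 1.34%) and 51 at D7 (11.6%, against 2.89%). When library sizes were set to the tag totals, the log2 median of all peaks became 0.30 at D3 and 0.35 at D7. The split of the rising peaks turned to 9 higher and 2 lower at D3 (49 and 6 of all peaks). At D7 it turned to 18 higher and 7 lower (224 and 21 of all peaks). Leaving out 1 library moved the D3 count to between 0 (without U25 or U9) and 17 (without U10), with 3 without U26 and 4 without U24, and the D7 count to between 5 (without U3) and 13 (without U24), with 6 without U2 and 7 without U25 or U1. Over all peaks, 33 were called at D3 and 102 at D7 with all libraries. Leaving out 1 library gave 2 (without U9) to 64 (without U10) of all peaks at D3. At D7 it gave 37 (without U25) to 86 (without U26). With lane as a block in a fit over all 42 libraries, 5 and 9 rising peaks were called (34 and 56 of all 9947 peaks). The split of the rising peaks was then 2 higher and 3 lower at D3 (21 and 13 of all peaks). At D7 it was 6 higher and 3 lower (38 and 18 of all peaks). Some of these peaks were not called in the fit within soleus.

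Peaks that were high on the first day and then fell included chr16:20352614-20352752 (plus strand). Its soleus libraries held 2.24, 2.62 and 2.77 CPM in the controls, 12.4, 16.5 and 29.7 CPM at D1, 4.39, 3.76 and 7.70 CPM at D3 and 2.57, 5.76 and 2.12 CPM at D7. All 3 D1 libraries were above every other soleus library, and D7 was lower than D1 by a log2 fold change of −2.85 (SE 0.44), and it met the threshold without any 1 library and with lane as a block. The peak at chr18:55879418-55879708 (minus strand) held 5.85, 14.7 and 9.29 CPM at D1 and at most 1.79 CPM in every other soleus library (log2 fold change of D7 against D1 −3.76, SE 0.88). Without any 1 of the 6 libraries of U24, U25, U26, U1, U2 and U3 the log2 fold change was −4.25 to −3.18 and no longer met the threshold. The largest fall, at chr10:49538488-49538711 (plus strand), came from 180 CPM in U26, beside 9.13 and 3.22 CPM in the other D1 libraries and 4.34, 3.73 and 3.17 CPM at D7 (log2 fold change −4.35, SE 0.96). Without U26 its log2 fold change was −1.09, and without U1, U2 or U3 it was −4.48 to −4.16, and in each case it was not called.

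Of the 5 peaks that were higher at D7 than at D1, the largest changes were at 3 peaks that lay below the controls on the first day. The peak at chr16:79671657-79672044 (minus strand) held 33.7, 28.4 and 28.2 CPM in the controls, 4.38, 6.44 and 10.4 CPM at D1, 72.3, 18.6 and 52.5 CPM at D3 and 65.2, 214 and 148 CPM at D7 (log2 fold change 3.92, SE 0.63), and the call held without any 1 library. At chr20:50468566-50468778 (plus strand) the D1 libraries held 2.01, 1.85 and 1.34 CPM and the D7 libraries 13.2, 12.2 and 26.7 CPM, with controls of 4.87, 3.58 and 2.49 CPM (log2 fold change 2.96, SE 0.57), a call lost without U25, U26 or U3 (log2 fold change 2.40 to 3.14). The peak at chr4:8952356-8952562 was at 0, 0.142 and 0.158 CPM at D1 and at 0.790, 12.2 and 1.06 CPM at D7, so its call (log2 fold change 4.69, SE 1.14) rested on U2, without which the log2 fold change was 2.61 and not called. It was also not called without U24, U25, U26 or U3 (4.40 to 5.11). None of these 3 calls, nor that at the chromosome 18 peak, held with lane as a block.

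The unloaded EDL played no part in the choice of the peaks, apart from the EDL controls as a bound on level, and shows what the same peaks did in the fast muscle. The EDL libraries come from the same rats as the soleus libraries that chose the peaks, and all controls were in lane 1. Deviations of the 2 muscles from their group means correlated with r from −0.385 to 0.549, above 0.1 in 15 of 21 animals. The differences to all peaks are therefore not free of the choice. The ratio of EDL unloading to EDL control had a median of 1.31 over the rising peaks and 1.12 over all peaks. It was at least 1.5 in 135 rising peaks (30.5%, against 16.4% of all peaks) and at most 1/1.5 in 12 (2.71%, against 3.94%). All 9 EDL unloading libraries were above all EDL controls in 33 rising peaks (7.47%, against 3.52%) and below them in 2 (0.452%, against 0.863%). By phase, all 3 EDL libraries were above the controls in 76 rising peaks at D1 (17.2%, against 7.9%), 121 at D3 (27.4%, against 22.3%) and 100 at D7 (22.6%, against 14.7%). All 3 were below the controls in 30 rising peaks at D1 (6.79%, against 7.94%), 40 at D3 (9.05%, against 7.0%) and 14 at D7 (3.17%, against 3.59%).

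The test across all EDL peaks found few changes that held against the spread between animals. Of 417 rising peaks that passed the filter on low counts, 21 were called at D1 (5.04%, against 3.08% of all peaks), 18 of them higher (4.32%, against 1.92%) and 3 lower (0.719%, against 1.17%). At D3, 6 were called (1.44%, against 1.26%), 5 higher and 1 lower, and at D7, 7 were called (1.68%, against 1.09%), 3 higher and 4 lower, so at these phases the share was near that of all peaks. Of all 9345 peaks tested, 90 were called higher and 28 lower at D3, and 56 higher and 46 lower at D7. The median log2 fold change against the EDL control was 0.43 at D1, 0.20 at D3 and 0.26 at D7 over the rising peaks, and 0.06, 0.04 and 0.02 over all peaks. DESeq2 called 39 rising peaks at D1 (8.88%, against 4.28%), 15 at D3 (3.42%, against 2.86%) and 20 at D7 (4.56%, against 2.21%). When library sizes were set to the tag totals, the log2 median of all EDL peaks became −0.07, 0.25 and 0.32. The rising peaks then split into 7 higher and 1 lower at D1, 4 and 0 at D3 and 6 and 1 at D7. Of all peaks, 109 were called higher and 48 lower at D1, 114 and 16 at D3 and 102 and 10 at D7.

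The counts also moved with single EDL libraries. At D1, 9 rising peaks were called without U6 or U25 (94 and 82 of all peaks), 10 without U8 (110) and 35 without U26 (470). At D3, 31 of 421 were called without U11, where 650 of all 9421 peaks were called. It was 1 without U6 (54 of all peaks) and 0 without U7, U8, U9 or U10 (5 to 33 of all peaks). At D7, 1 was called without U6, U7, U8, U1 or U3 (9 to 53 of all peaks) and 5 without U2 (86 of all peaks).

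Lane bears on these counts, since no EDL unloading library shared a lane with the EDL controls. With lane as a block in a fit over all 42 libraries, 1 rising peak remained called at D1 and 0 at D3 and D7. Of all 9947 peaks, 5 were called at D1 and 0 at D3 and D7. No value within a lane can be given. Besides the controls, lane 1 held only the soleus of U24. The lane 1 effect in the fit with lane therefore rested on that library and was taken as equal in both muscles. In the fit with lane the median SE over all peaks was 0.70 at D1, 0.71 at D3 and 0.76 at D7. Without lane in the same fit, it was 0.40, 0.37 and 0.38. The median log2 fold change of the rising peaks was 0.48, 0.33 and 0.50 with lane and 0.45, 0.23 and 0.28 without. Why the calls were lost was not tested. The remaining peak, chr4:62380589-62380892 (plus strand), held 4.19, 1.83 and 2.74 CPM in the EDL controls, 11.2, 24.2 and 30.8 CPM at D1, 4.20, 4.75 and 4.81 CPM at D3 and 21.4, 6.71 and 16 CPM at D7. At D1 its log2 fold change was 3.06 (SE 0.42, edgeR with Benjamini-Hochberg adjusted p = 0.000740), and 3.57 with lane as a block. In soleus it went from 4.01, 3.82 and 4.43 CPM to 15.5, 10.9 and 11.7 CPM at D1, 9.72, 7.84 and 8.52 CPM at D3 and 14.2, 17.7 and 10.1 CPM at D7, and all 9 were above the controls. It was picked out after its values were seen.

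Calls were also pooled over the 3 unloading phases. No matching count over all peaks was made, so the pooled counts are a description and nothing is read from them. In EDL 31 rising peaks were called at 1 phase or more, 23 higher and 8 lower, and 3 of them at more than 1 phase. Besides the chromosome 4 peak these were the X peak and chr1:31055298-31055492 (minus strand). At the X peak the EDL controls held 22.4, 16.8 and 22.1 CPM, and the unloading libraries 57.8, 62.7 and 105 CPM at D1, 154, 109 and 82.3 CPM at D3 and 50.6, 49.3 and 155 CPM at D7. Its log2 fold change was 2.04 at D1 (SE 0.47, edgeR with Benjamini-Hochberg adjusted p = 0.0191) and 2.25 at D3 (SE 0.47, edgeR with Benjamini-Hochberg adjusted p = 0.0212), and all 9 EDL unloading libraries were above the EDL controls. The D1 call was lost without U6, U7, U8 or U25 (log2 fold change 1.95 to 2.14), and the D3 call without U6, U7, U8, U9 or U10 (2.03 to 2.36). The chromosome 1 peak went from 3.05, 2.13 and 2.74 CPM to 7.07, 4.37 and 10.5 CPM at D1, 7.78, 6.29 and 5.93 CPM at D3 and 7.68, 6.42 and 10.5 CPM at D7, and was called at D1 (log2 fold change 1.60, SE 0.33, edgeR with Benjamini-Hochberg adjusted p = 0.0107) and at D7 (1.34, SE 0.32, adjusted p = 0.0470). Its D1 call was lost without U6 (1.60), and its D7 call without any 1 of the 6 libraries (1.26 to 1.43). At the chromosome 4 peak the D1 call held without any 1 library, whereas the D7 call (log2 fold change 1.97) was lost without U6, U7, U8, U1 or U3 (1.64 to 2.23).

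The largest changes called upward in EDL were at peaks with soleus ratios of 1.53, 2.52 and 1.54. The first, chr2:78399778-78401513 (plus strand, 1736 nt, the widest rising peak), held 2.70, 3.66 and 2.56 CPM in the EDL controls and 21.2, 44.5 and 18.1 CPM at D1 (log2 fold change 3.59, SE 0.59, edgeR with Benjamini-Hochberg adjusted p = 0.00283), a call that held without any 1 library. Its EDL level was back at 2.91, 5.83 and 3.06 CPM at D3 and up at 14.4, 10.2 and 7.76 CPM at D7, whereas in soleus the D1 libraries (5.11, 2.56 and 5.20 CPM) overlapped the controls (4.41, 4.53 and 4.29 CPM) and the D7 libraries (10.1, 10.2 and 9.79 CPM) did not. The peak at chr10:88500552-88500918 (minus strand) went from 1.13, 0.305 and 0.183 CPM to 10.7, 1.75 and 14.5 CPM in EDL at D7 (log2 fold change 3.46, SE 0.74, edgeR with Benjamini-Hochberg adjusted p = 0.0278), a call lost without U6, U7, U8, U1 or U3 (3.10 to 4.72). The call at chr10:40764142-40764415 (minus strand) at D1 rested on 2997 CPM in the EDL of U26, beside 373 and 108 CPM in the other D1 libraries and controls of 68.7, 160 and 68.5 CPM (log2 fold change 3.33, SE 0.86, edgeR with Benjamini-Hochberg adjusted p = 0.0354). It was lost without U26 (log2 fold change 1.65) and without U6, U7 or U8 (3.05 to 3.92).

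**Figure D5:**
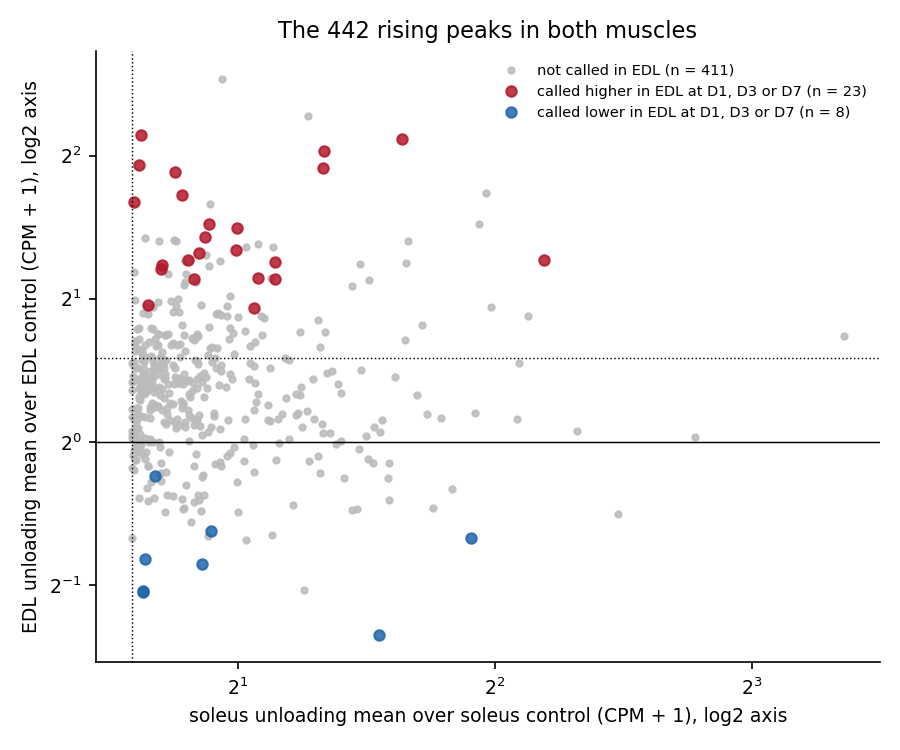
Mean of the unloading libraries over the control mean, both plus 1 CPM, in soleus (horizontal axis) and EDL (vertical axis), both axes on a log2 scale, for the 442 rising peaks; the dotted lines mark 1.5. Red points are the 23 rising peaks called higher in EDL and blue points the 8 called lower, and all points lie right of the vertical line because soleus chose them.

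In EDL, 8 rising peaks were called lower at 1 phase or more. The peak at chr15:27818986-27819819 (minus strand) fell in EDL from 39.3, 28.9 and 25 CPM to 14.7, 3.97 and 10.1 CPM at D1, 16.5, 15.4 and 13.2 CPM at D3 and 16.6, 2.63 and 11.3 CPM at D7, so every unloading library was below every control. The log2 fold change at D7 was −1.94 (SE 0.47, edgeR with Benjamini-Hochberg adjusted p = 0.0490), and the call was lost without any 1 of the 6 libraries (−2.44 to −1.63). In soleus the same peak held 15.8, 13.2 and 12.3 CPM in the controls, 48.6, 40.4 and 61.0 CPM at D1, 31.0, 40.3 and 13.7 CPM at D3 and 39.7, 55.9 and 49.7 CPM at D7. The order of the muscles was therefore reversed during unloading, with soleus below EDL in all 3 control animals and above it in all 9 unloaded animals, least in U11.

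The second such peak, chr2:164549341-164549524 (plus strand), fell in EDL from 139, 115 and 117 CPM to 46.9, 31.8 and 36.8 CPM at D7 (log2 fold change −1.93, SE 0.30, edgeR with Benjamini-Hochberg adjusted p = 0.00838), a call that held without any 1 library, and its soleus libraries went from 70.5, 65.5 and 69.6 CPM to 77.2, 131 and 125 CPM. At chr18:36370871-36371505 (plus strand) EDL went from 11.3, 9.14 and 8.22 CPM to 0.590, 1.59 and 3.36 CPM at D1 (log2 fold change −2.08, SE 0.48, edgeR with Benjamini-Hochberg adjusted p = 0.0191), a call lost without U6, U8, U24 or U25 (−2.14 to −1.89). There the soleus D1 libraries (3.65, 2.51 and 4.80 CPM) were not above their controls (5.59, 3.22 and 5.81 CPM), and the soleus level was up at D3 and D7. The chromosome 9 peak described first was called lower in EDL at D7 (log2 fold change −1.54, SE 0.31, edgeR with Benjamini-Hochberg adjusted p = 0.0195), and the call was lost without any 1 of the 6 libraries (−1.61 to −1.44).

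Opposite movement at 1 phase, with all soleus libraries above and all EDL libraries below their controls, was seen at 16 rising peaks at D1 (3.62%, against 0.291% of all peaks), 11 at D3 (2.49%, against 0.281%) and 6 at D7 (1.36%, against 0.301%). The soleus side of this count was fixed by the choice of the peaks, and nothing is read from the difference to all peaks.

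In recovering EDL no rising peak of 417 was called at R1, R3 or R7 by edgeR (0.0% of all 9345 peaks tested at each phase). At an unadjusted p under 0.05, 65 of 417 rising peaks passed at R1, 72 at R3 and 29 at R7. Of all 9345 peaks, 899, 1295 and 408 passed. Among the rising peaks that passed, 57, 56 and 21 were higher and the rest lower. The EDL controls also bounded the choice, so nothing is read from the difference to all peaks. DESeq2 called 0 rising peaks at R1 (0.302% of all peaks), 8 at R3 (1.82%, against 0.896%) and 0 at R7 (0.0101%). The 8 at R3 were all higher, and of all peaks DESeq2 called 80 higher and 9 lower there. When the EDL of U5 was left out, edgeR also called 8 at R3. Of all peaks 90 were then called, 84 higher and 6 lower.

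Soleus and EDL were compared over R3 and R7, whose 12 libraries had no part in the choice of the peaks. The choice did bound the ratio of the soleus control to the EDL control, both plus 1. This ratio had a median of 1.11 over the rising peaks and 1.32 over all peaks. The order of the muscles was thus partly set by the choice, and nothing is read from the difference to all peaks. Of 434 rising peaks tested, 64 were called (14.7%, against 16.6% of all peaks), 11 higher in soleus (2.53%, against 9.11%) and 53 lower (12.2%, against 7.48%). The median log2 difference was −0.19 over the rising peaks and 0.07 over all peaks, and DESeq2 called 67 (15.2%, against 16.9%). When library sizes were set to the tag totals, the log2 median of all peaks became 0.33 and that of the rising peaks 0.05. The split of the rising peaks was then 22 higher and 37 lower, against 1228 higher and 623 lower over all peaks. Of the 53 lower peaks 50 also had a soleus control mean below the EDL control mean, and of the 11 higher peaks 11 were above it. The soleus control mean was below that of EDL in 178 rising peaks, and in 113 of these the soleus mean was above that of EDL during unloading. The peaks were chosen for a soleus mean that was higher in unloading than in the controls, which favours such a crossing. No share over all peaks was computed for it, so this count is a description and nothing is read from it.

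The largest differences toward EDL were at weak and middling peaks. The peak at chr3:125213548-125213754 (minus strand) held 2.10, 3.5 and 2.39 CPM in soleus at R3 and 3.18, 2.42 and 2.32 CPM at R7, against 13.5, 8.42 and 11.8 CPM and 14.7, 30.6 and 24.8 CPM in EDL (log2 difference −2.83, SE 0.33, edgeR with Benjamini-Hochberg adjusted p = 2.43e-08). All 6 EDL libraries were above all 6 soleus libraries. At chr1:221760227-221760276 (plus strand) soleus ran from 0.768 to 2.42 CPM and EDL from 3.34 to 9.56 CPM over the 6 animals (log2 difference −2.61, SE 0.39, edgeR with Benjamini-Hochberg adjusted p = 2.60e-06). At chr11:70855361-70855524 (minus strand) soleus ran from 0 to 0.842 CPM and EDL from 0.910 to 3.16 CPM (log2 difference −3.39, SE 0.63, edgeR with Benjamini-Hochberg adjusted p = 6.22e-05).

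Toward soleus, the largest differences were at peaks that EDL hardly used. At chr1:72882750-72882821 (plus strand) the 6 soleus libraries held 183 tags and the 6 EDL libraries 1 tag, a ratio of 112 after division by the library totals, with a 95% exact counting interval of 19.8 to 4434. The soleus values ran from 0.421 to 11.7 CPM, with the highest in U12 (log2 difference 5.96, SE 1.18, edgeR with Benjamini-Hochberg adjusted p = 0.000232). At chr8:111974081-111974192 (minus strand) the tags were 53 and 1, a ratio of 32.3 with an interval of 5.56 to 1301 (log2 difference 3.93, SE 1.20, edgeR with Benjamini-Hochberg adjusted p = 0.0120). In unloading this chromosome 8 peak had held 7.85, 12.3 and 5.36 CPM in soleus at D1, and at most 0.397 CPM in any EDL library. At chr13:51136806-51137175 (plus strand) soleus ran from 2.38 to 6.11 CPM and EDL from 0 to 0.924 CPM (log2 difference 3.51, SE 0.54, edgeR with Benjamini-Hochberg adjusted p = 3.30e-06), and the intervals cover counting error only. The calls at all 6 peaks named in this comparison held without any 1 library.

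The choice of the peaks used their total level and not where within the peak transcription began. A peak high in 1 library could still enter through it, and that library could also set the pooled starts. The 442 rising peaks were also weaker in the soleus controls (median 6.98 CPM, against 10.9 CPM over all peaks). The shares below are therefore not free of the choice, and nothing is read from the difference to all peaks. In 395 rising peaks with at least 50 tags in the pooled soleus controls and in the pooled unloading libraries, the most used start was the same position in 298 (75.4%), against 79.6% of all such peaks. It moved by more than 50 nt in 24 (6.08%, against 4.28%). The median width that held the middle 80% of tags was 45 nt in controls and in unloading. Narrow peaks, with that width at 10 nt or less, numbered 71 of these 395, against 12.4% of all peaks, and the full width was at most 25 nt in 17 rising peaks (3.85%, against 1.54%).

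Of the peaks whose most used start moved by more than 50 nt, 3 are described here by library, picked after their values were seen. At chr7:99523691-99523875 (plus strand) the most used start was position 99523750 in the controls and 99523831 in pooled unloading, but 1237 of 1602 tags (77.2%) lay at the latter in U10 (D3), and 0% to 5.32% did in the other unloading libraries. The high level of U3 (D7, 68.0 CPM) at the same peak came from the control position, with 143 of 257 tags (55.6%). At chr2:60949107-60949345 (plus strand) the shift was shared by the soleus libraries of D1, R3 and R7 and was not seen at D3. Its downstream start at 60949258 took 9.38%, 27.8% and 16.7% of only 32, 18 and 24 tags in the soleus controls. It took 61.1%, 45.5% and 55.8% at D1 and 0% to 15.4% of 10 to 61 tags at D3. In recovery it took 8% to 77.4% at R1, 45.9% to 64.6% at R3 and 58.5% to 73.9% at R7. In EDL it took 62.5%, 40% and 45.5% of 8, 5 and 88 tags at D1, against 0% to 37.5% in the controls. The downstream start took 1.82% to 12.1% in EDL at D3, and 6.67%, 0% and 52.8% of 15, 6 and 108 tags in EDL at D7. The soleus D7 libraries held 15 to 28 tags each and gave 0% to 46.7%. At chr2:199893146-199893638 (minus strand) the start moved from 199893245 to 199893565, mostly in U25 (D1), where 52.5% of 577 tags lay at the latter, and in U10 (D3), with 34.8% of 227 tags.

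Position was not used in the choice either. The median width of the rising peaks was 218 nt, against 207 nt over all peaks, 236 of 442 lay on the plus strand, and a peak of the same strand lay within 1 kb of 64 (14.5%, against 18.5%). Of these 64 neighbours 27 had a ratio of at least 1.5, 21 had a ratio from 1 to 1.5 and 16 were below 1, and 25 were rising peaks themselves. Within 10 kb of each other lay 72 rising peaks in 31 groups of up to 4. A group that did not rest on 1 animal was chr1:167195827-167203228, which holds the strong chromosome 1 peak and 2 more rising peaks on both strands, with ratios from 1.54 to 2.62 and no library above 16.8% of the unloading level.

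The soleus time course most like that of the chromosome 9 peak, by the correlation of log2(CPM + 1) over the 7 group means among the peaks that were not chosen, was at chr2:196300916-196301224 (minus strand, r = 0.979). It is not a rising peak, since it failed the bound at R1. Its group means were 0.847 CPM in the controls, 8.71, 6.22 and 5.99 CPM at D1, D3 and D7, and 3.68, 1.07 and 0.579 CPM at R1, R3 and R7, and its ratio was 4.32. The next, chr5:57291151-57291298 (plus strand, r = 0.979), followed the same course on a smaller scale, with a ratio of 1.29, from 9.55 CPM in the controls to 13.8 CPM at D1 and 8.83 CPM at R7. The other 3 of the 5 most alike, on chromosomes 20, 7 and 12, had r from 0.956 to 0.962 and ratios under that of the chromosome 5 peak. The correlation is over 7 groups and is given as a description.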

How the data were processed

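CAGE tags of soleus and EDL from 21 rats (42 libraries, 1778712 to 23103236 tags) were analysed from the deposited counts. The authors trimmed and aligned the reads to Rnor_6.0, counted the 5′ ends of tags per position and joined them into 9971 TSS peaks with raw counts per library. The submitters' processing notes name Trimmomatic 0.38, BWA and HISAT2, whereas the study's methods name STAR and PromoterPipeline and keep reads that map to several places, so counts of near-identical sequences are uncertain. The 42 normalised columns of the peak table were not used here.

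Sequencing lane was taken from the library names. CPM values are counts divided by the column sum of the peak table. Widths and start positions came from the tag counts per position, whose sums over the peaks equalled the peak table in the soleus controls (0 peaks differed). Tests were run with edgeR 4.0.16 in R 4.3.3 (filterByExpr, TMM, quasi-likelihood F-test, Benjamini-Hochberg adjustment over all peaks tested) on 3 fits, within EDL, within soleus, and over all 42 libraries with groups pooled over R3 and R7 for soleus against EDL. Calls required both an adjusted p under 0.05 and a log2 fold change beyond 5/4 in either direction. Of the 442 rising peaks, 417 passed the filter on low counts in EDL, 432 in soleus and 434 over both. Replicates are separate animals, 3 per group. The median biological coefficient of variation was 0.302 in EDL and 0.284 in soleus. Python 3.11.15 with pandas 2.3.3, numpy 2.4.6 and matplotlib 3.10.9 was used for the remaining steps, and the test was checked on simulated counts. DESeq2 1.42.0, other scalings and filters, lane as a block, all 42 libraries in 1 fit and leaving out each library were the alternatives.

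The members, comparisons and lists were chosen with earlier results of these data known. Peaks were named by position with these rules: the 8 highest ratios among peaks with all 9 unloading libraries above the controls and a mean of at least 10 CPM, the 5 highest unloading levels, 3 peaks on each side of the threshold, the 3 largest called changes in each direction in EDL during unloading, in soleus between D1 and D7 and between R3 and R7, and between the muscles, and the 5 time courses most like that of the first among the peaks that were not chosen. Every other peak named was picked after its values were seen. Same-numbered libraries come from the same animal. Over the 6 animals of R3 and R7, the deviations of soleus and EDL from their group means correlated with r from −0.173 to 0.514, above 0.1 in 5. Gene names, marker lists and sequences were not used here, since no annotation of the build of the files was at hand.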

Additional observations from a re-analysis of the deposited data

Results flagged for a closer look

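Among the rising peaks named by position in the report, there were 5 at which every soleus library of a phase was above all soleus controls while every EDL library of the same phase was below all EDL controls, and the difference between the muscles was not tested. The mean over the control mean at chr15:27818986-27819819 (minus strand) was 3.62 in soleus and 0.309 in EDL at D1, and 3.51 and 0.327 at D7. For chr2:164549341-164549524 (plus strand) it was 1.97 and 0.573 at D1, and 1.62 and 0.311 at D7. For chr9:81968587-81969019 (plus strand) it was 3.21 and 0.555 at D3, and 3.17 and 0.424 at D7. For chr4:49267770-49267952 (minus strand) it was 15.8 and 0.321 at D3, where the EDL libraries held 0.504, 0.0904 and 0.687 CPM, few tags each. For chr1:221760227-221760276 (plus strand) it was 2.24 and 0.535 at D7. The soleus side of each of these was part of the choice of the peaks.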

How the results depend on the processing

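With other settings in the choice, 442 peaks were chosen after TMM scaling (372 shared), 335 with the median of the 9 unloading libraries in place of their mean (277 shared), 491 with MT left out of the totals, 469 with a pseudocount of 0.5 and 398 with 2, and 421 to 578 without any 1 library. The number of rising peaks called moved as follows, that of all peaks moved with the same settings, and the causes were not tested. In EDL, D1 (21) went to 8 with tag totals, 39 with DESeq2, 1 with lane as a block and 9 to 35 without 1 library. D3 (6) went to 15 with DESeq2, 0 with lane as a block and 0 to 31 without 1 library. D7 (7) went to 4 without the filter on low counts, 20 with DESeq2, 14 in a fit over all 42 libraries, 0 with lane as a block and 1 to 5 without 1 library. R3 (0) went to 8 with DESeq2 and 0 to 8 without 1 library. In soleus, D3 against D1 (7) went to 11 with tag totals, 33 with DESeq2 and 0 to 17 without 1 library, and D7 against D1 (16) went to 25, 51, 5 to 13, and 9 with lane as a block. Soleus against EDL over R3 and R7 (64) gave 56 with the animal as a replicate block, 10 higher and 46 lower (781 and 706 of all peaks). It gave 53 in the same 12 libraries without the block, and 48 to 73 without 1 library. Of 530 alternatives for the 37 calls of named peaks, 397 kept the call, 132 kept only the direction, and at chr10:49538488-49538711 (plus strand) the log2 fold change in EDL at D1 turned to −1.01 with lane as a block, and 12 calls held in all alternatives. The fit over all 42 libraries without lane and the 12 libraries without the block were added after the data were seen. With 3 animals per group and lanes tied to phases, single libraries decide many calls, and peaks under about 1 CPM rest on few tags.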
